A study of Ovis aries with 36 samples.

Results

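MYOZ2 and TPM3 are a pair of sarcomere genes whose transcripts were followed here across 9 muscles of the sheep. They were taken by their Ensembl identifiers, ENSOARG00000016717 for MYOZ2 and ENSOARG00000001845 for TPM3. Each identifier named a single locus, so they make 2 of the 31136 loci counted and 2 of the 12461 loci with enough counts to be tested. RNA-Seq libraries came from 4 unrelated male Poll Dorset cross-bred lambs, 14 months old, that were not split by any treatment in the labels, and every lamb gave every muscle, which makes 36 libraries. From the hindquarter came semitendinosus (ST) and semimembranosus (SM) of the hamstrings, adductor (AD), rectus femoris (RF) of the front of the thigh, gluteus medius (GM), and the front portion of gluteobiceps (GB). The loin gave psoas major (PM) and longissimus lumborum (LL), and the shoulder supraspinatus (SS), with n = 4 lambs in each muscle. Both genes are in the study's list of the most significant genes between ST and SS, made from these same samples. Their ranks among loci, numbers of called pairs and differences between ST and SS are therefore not independent evidence.

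A skeletal muscle is a mixture of slow fibers, which contract slowly and work aerobically, and several kinds of fast fibers. Slow and fast fibers build the same sarcomere from different members of the same protein families. Myozenin 2, the product of MYOZ2, sits at the Z-disc, the plate that anchors the thin filaments of neighbouring sarcomeres. It binds alpha-actinin and the calcium-dependent phosphatase calcineurin, and is known from slow skeletal muscle and heart. TPM3 encodes the slow-fiber alpha tropomyosin, a coiled coil that lies along the actin filament and, with the troponin complex, opens and closes the myosin binding sites as calcium rises and falls. Other isoforms from TPM3 belong to the cytoskeleton of many cell types, and the counts per gene do not separate them.

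On the Oar_v3.1 assembly the MYOZ2 locus spans chromosome 6 from 6264895 to 6303407, or 38513 bp, and no other locus had that span. The TPM3 locus spans chromosome 1 from 103039221 to 103067829, or 28609 bp, and shares that span with a locus without an Ensembl gene, described further on. These spans are of whole assembled loci, exons and introns together. In RefSeq's annotation of a newer sheep assembly, ARS-UI_Ramb_v3.0, the nearest protein-coding genes are C6H4orf3 and SYNPO2 beside MYOZ2, and NUP210L, which overlaps it, and CFAP141 beside TPM3. A long non-coding RNA, LOC105615393, overlaps MYOZ2 there. The study measured MYOZ2 and TPM3, with other genes, also by quantitative PCR in the ST and SS samples. It reports similar patterns by both methods, higher in SS. The primer pair it designed for MYOZ2 is shown because it is what defines that transcript at the bench. Its primer list holds none for TPM3. Each primer is 20 bases long with 11 G or C bases (55.0%), written 5′ to 3′.
MYOZ2 forward primer: accacggttactgagatggg
MYOZ2 reverse primer: ggtgaagcagaggaaagagc

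The libraries held 3699148 to 6427422 counts, and lamb 1 had the lowest total in 9 of 9 muscles. The 4 most counted loci took 65.7% to 78.3% of a library, with 71.7% to 75.1% in ST, 67.2% to 73.5% in SS and 69.3% to 70.5% in PM. Levels are given as CPM, a locus's counts in every 1000000 counts of its library, with the library size scaled by the trimmed mean of M-values (TMM). On this scale 3 counts, the floor for a count of 0, correspond to 0.365 to 1.02 CPM, and each MYOZ2 and TPM3 value lay above it. None of the 24 markers listed for muscle fibers, adipocytes, endothelium, fibroblasts, smooth muscle, leukocytes or Schwann cells could be tied to a locus, since the files carry Ensembl identifiers without symbols. The tissue labels and the share of other cells were therefore not checked. In bulk tissue, fewer fibers of one type and less RNA per fiber cannot be told apart.

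MYOZ2 varied more than 10-fold across the muscles. Its mean was highest in SS, the muscle over the shoulder blade, at 53.9 ± 14.1 CPM (SD, n = 4), and lowest in ST, a superficial hamstring, at 2.71 ± 1.60 CPM. SS was the highest and ST the lowest of the 9 muscles in 4 of 4 lambs. The joint test across muscles, which adjusts for lamb, gave F = 34.8 with an adjusted p of 1.6e-09 (edgeR's quasi-likelihood test, Benjamini-Hochberg over all loci tested), and only 12 loci had a smaller p, since MYOZ2 ranked 13. At an adjusted p of at most 0.01, 9.73% of the loci tested passed this joint test. Muscle accounted for 85.7% of the variation of log2 CPM over the 36 libraries, lamb for 7.36% and the remainder for 6.95%.

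The 4 SS libraries, in the order of lambs 1 to 4, had 53.3, 42.4, 73.9 and 46.0 CPM of MYOZ2. In GB, a large muscle of the outer thigh, they had 31.0, 34.4, 52.3 and 31.2 CPM (mean 37.2 ± 10.2). In PM, the deep loin muscle sold as tenderloin, the values were 18.5, 23.2, 59.4 and 32.1 CPM (33.3 ± 18.3). These 3 muscles overlapped, and lamb 3 was the highest lamb in each of them.
The middle of the range held AD, SM and GM. AD had 23.4, 15.5, 29.9 and 23.6 CPM (23.1 ± 5.87). SM had 17.4, 11.6, 41.1 and 22.1 CPM (23.0 ± 12.8). GM had 21.3, 15.2, 28.0 and 9.72 CPM (18.6 ± 7.87). The ranges of AD, SM and GM overlapped one another, and each of them lay wholly above RF and ST.
At the low end, LL had 14.1, 8.73, 17.1 and 4.28 CPM (11.1 ± 5.69). RF had 4.93, 5.68, 5.32 and 7.80 CPM (5.93 ± 1.28). ST had 1.59, 1.53, 4.95 and 2.79 CPM. RF was the most even muscle, and the lowest RF library was 4.93 CPM against 4.95 CPM in the highest ST library, so these ranges overlapped barely. The ST values rest on 6, 7, 30 and 13 counts. Exact 95% Poisson intervals, which cover counting error only, run from 2.2 to 13.1 for the 6 counts and from 20.2 to 42.8 for the 30.

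TPM3 also varied more than 10-fold, but with another muscle at the top. Its mean was highest in PM at 217 ± 46.9 CPM (SD, n = 4) and lowest in ST at 14.9 ± 4.84 CPM, and PM was the highest and ST the lowest in 4 of 4 lambs. The joint test gave F = 36.3 with an adjusted p of 3.9e-10, which ranked TPM3 9 among the loci tested. Muscle accounted for 86.5% of the variation of log2 CPM, lamb for 6.46% and the remainder for 7.01%, shares close to those of MYOZ2.

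The PM libraries of lambs 1 to 4 had 178, 194, 284 and 213 CPM of TPM3. GB had 115, 113, 164 and 172 CPM (141 ± 31.4). SS had 105, 100.1, 189 and 166 CPM (140 ± 44.5). PM lay wholly above GB but overlapped SS, because lamb 3 reached 189 CPM in SS, above lamb 1 in PM.
GM followed with 87.7, 92.4, 142 and 71.0 CPM (98.2 ± 30.4). AD had 52.0, 59.4, 101 and 87.3 CPM (74.8 ± 23.0). SM had 61.3, 31.3, 96.2 and 63.7 CPM (63.1 ± 26.6). These 3 muscles overlapped, and lamb 3 was again the highest in each.
RF had 24.6, 34.6, 49.8 and 89.3 CPM (49.6 ± 28.4), the widest spread of TPM3 relative to its mean, with lamb 4 highest. LL had 40.9, 49.4, 49.4 and 25.7 CPM (41.3 ± 11.2), with lamb 4 lowest. ST had 11.4, 10.02, 18.5 and 19.5 CPM from 43, 46, 112 and 91 counts. All 4 ST values lay below every value of the other muscles.

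**Figure D1:**
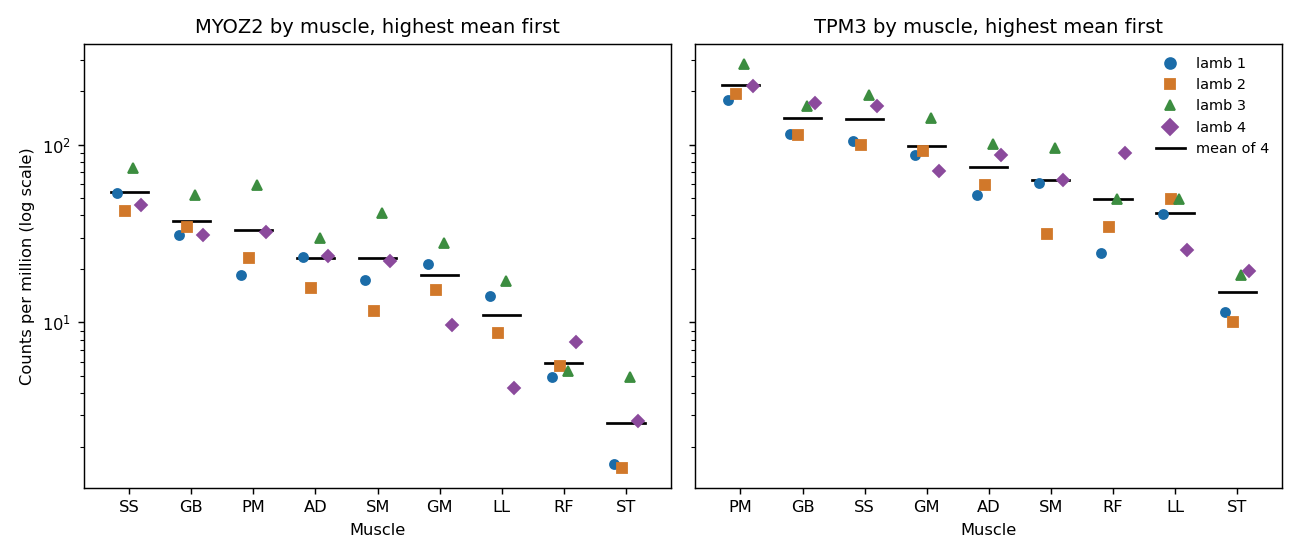
CPM (log axis) of MYOZ2 and TPM3 in each of the 36 libraries, by muscle from the highest mean to the lowest; points are lambs and black lines the mean of 4 lambs. MYOZ2 runs from 53.9 CPM in SS to 2.71 CPM in ST and TPM3 from 217 CPM in PM to 14.9 CPM in ST, and lamb 3 is often the highest point.

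All 36 pairs of muscles were tested in 1 fit. A pair was called where the adjusted p was at most 0.01 over all loci tested and the absolute log2 fold change (log2FC) was above 1. MYOZ2 was called in 18 pairs, as was PVALB, a fast-fiber gene described further on, and no locus was called in more. TPM3 was called in 17 pairs. Over all loci tested and all pairs together, 0.739% were called. Without lamb as a block, 10 pairs of MYOZ2 and 11 of TPM3 were called. MYOZ2 had 11 calls without lamb 2 and 12 without lamb 3, and TPM3 had 11 calls without lamb 1 and 9 without lamb 3.

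ST stood apart from most muscles for MYOZ2, with 7 of its 8 pairs called. The difference was widest from SS, at a log2FC of 4.34 (SE 0.24 over the 4 within-lamb differences, adjusted p = 1.2e-09), a 20.2-fold difference. From GB it was 3.81 (adjusted p = 3e-08), from PM 3.58 (2.8e-08), from AD 3.12 (5.3e-07) and from SM 3.03 (1.6e-06). These differences in MYOZ2 came out in the same direction in 4 of 4 lambs. RF was the muscle not separated from ST, with 1.23 (SE 0.36, adjusted p = 0.084), although RF was higher in 4 of 4 lambs. LL exceeded ST by 2.02 (adjusted p = 0.00025), a call that was lost without lamb 1 (1.68, adjusted p = 0.017) and without lamb 2 (1.91, 0.014).
In this ST and SS comparison 2.25% of the loci tested were called, in ST and PM 1.69%, and in SS and PM 0.835%.

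TPM3 in ST was lower than in each of the other 8 muscles, and 8 of 8 pairs were called. The widest log2FC was 3.90 from PM (SE 0.17, adjusted p = 1.2e-10), a 14.9-fold difference. GB exceeded ST by 3.27 (adjusted p = 1.1e-08), SS by 3.23 (3.6e-09) and GM by 2.76 (1.5e-07). The smallest of the 8 was LL over ST at 1.56 (SE 0.40, adjusted p = 0.00032), which was not called without lamb 1 (adjusted p = 0.022), lamb 2 (0.013) or lamb 3 (0.015). RF over ST, at 1.71 (adjusted p = 0.00053), was not called without lamb 3 (0.031).

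Muscles next to each other in the order of their means were seldom called, and this order was set by the same values. For MYOZ2 the order was SS, GB, PM, AD, SM, GM, LL, RF, ST, and 0 of its 8 neighbouring pairs were called by edgeR, and 0 by DESeq2. The unadjusted p was below 0.05 in 3 of them, and 3 went the same way in 4 of 4 lambs: SS over GB by 0.53 (SE 0.098), GM over LL by 0.75 (SE 0.12) and RF over ST. The log2FC of the neighbouring pairs ran from 0.09 for AD over SM to 1.23 for RF over ST. For TPM3 the order was PM, GB, SS, GM, AD, SM, RF, LL, ST, and 1 of 8 neighbouring pairs, LL over ST, was called by either tool, while 3 went the same way in 4 of 4 lambs. GB and SS were level in TPM3, with a log2FC of 0.04 (adjusted p = 0.97), whereas PM exceeded GB by 0.63 (SE 0.11, adjusted p = 0.30) in 4 of 4 lambs.

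**Figure D2:**
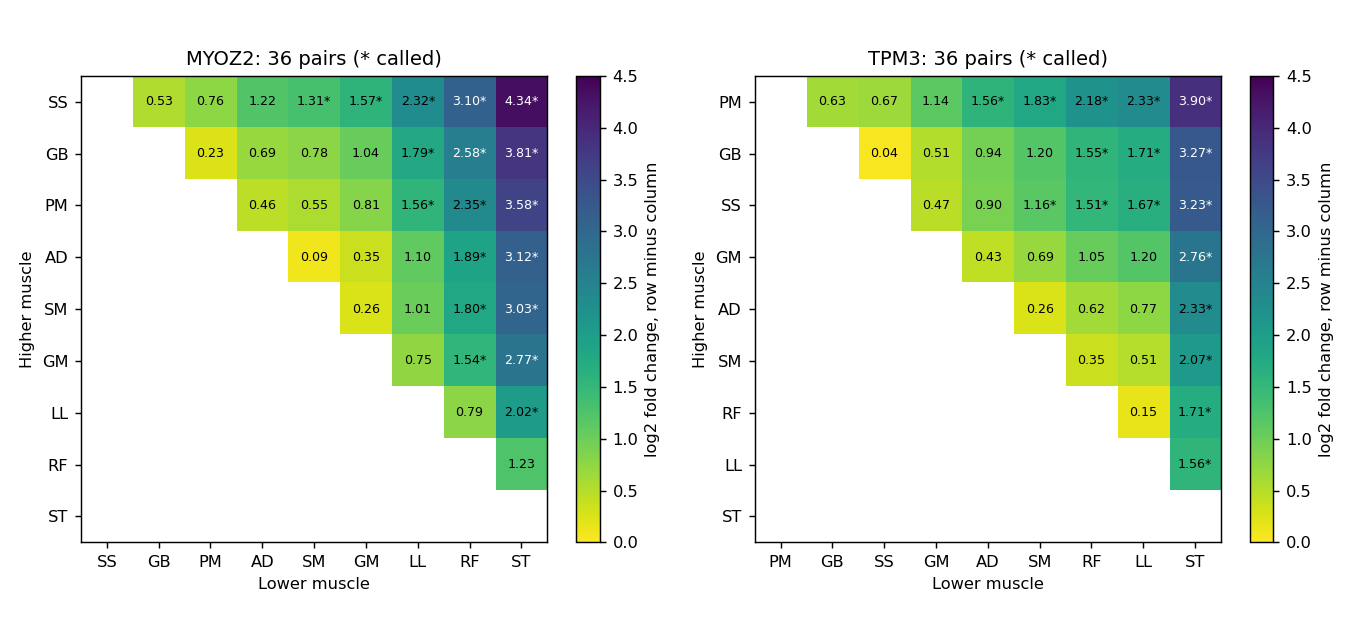
Log2 fold change of MYOZ2 (left) and TPM3 (right) for each of the 36 pairs of muscles, row minus column, with muscles ordered by mean CPM and an asterisk on called pairs. The ST column holds the largest values of both genes, up to 4.34 for MYOZ2 and 3.90 for TPM3. Beside the diagonal the values run up to 1.23 for MYOZ2 (RF over ST) and 1.56 for TPM3 (LL over ST), the latter called.

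The calls of the genes coincided in 14 pairs and in neither gene was a call made in 15. These counts share the same libraries and are given as a description. The 4 pairs called for MYOZ2 only were SM over RF, AD over RF, GM over RF and SS over GM. The 3 pairs called for TPM3 only were PM over SM, PM over AD and RF over ST. The direction was the same for both genes in 30 of 36 pairs. The other 6 pairs, SS with GB, SS with PM, GB with PM, GM with AD, GM with SM and LL with RF, were called for neither gene.

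SS and PM changed places between the genes. MYOZ2 was higher in SS than in PM by a log2FC of 0.76 (SE 0.26, adjusted p = 0.13) and TPM3 was higher in PM than in SS by 0.67 (SE 0.12, adjusted p = 0.14). Neither passed the threshold, and each direction was seen in 4 of 4 lambs. To compare the genes directly, the MYOZ2 count was divided by the TPM3 count of the same library, a quantity that does not depend on library size. It is not corrected for transcript length, so it can be compared between muscles but not read as a ratio of molecules.

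The ratio differed among muscles. Its between-muscle F, on the log2 scale with 0.5 added to each count, was 10.1 (permutation test, 100000 resamples of muscle labels within lamb, p = 2e-05, where the smallest p possible was 1e-05). Muscle accounted for 68.5% of its variation, lamb for 11.1% and the remainder for 20.4%. There were 40 ± 9.55 MYOZ2 counts per 100 TPM3 counts in SS (SD, n = 4), 35.7 ± 5.93 in SM and 32.0 ± 8.79 in AD. At the other end were RF with 14.0 ± 5.17, PM with 14.6 ± 4.65 and ST with 17.6 ± 6.17. GB, LL and GM lay between, at 26.8 ± 6.10, 25.9 ± 10.04 and 18.6 ± 4.58.

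In SS the ratio was 50.9, 42.3, 39.0 and 27.8 MYOZ2 counts per 100 TPM3 counts in lambs 1 to 4. In PM it was 10.4, 11.97, 20.9 and 15.1, so that the highest PM library was below the lowest SS library. In RF it was 20, 16.4, 10.7 and 8.74, also below SS in each lamb. The log2 ratio was higher in SS than in PM by 1.47 (SE 0.35, lowest lamb 0.88, highest 2.28) and higher in SS than in RF by 1.55 (SE 0.13). SM, whose MYOZ2 and TPM3 were both of middle level, exceeded PM by 1.33 (SE 0.13). With 4 lambs the exact sign-flip test of a single pair cannot go below p = 0.13 (two-sided), the value found in each of these 3 pairs and in 24 of the 36 pairs.
The 2 muscles farthest apart in MYOZ2 also differed in the ratio. In ST it was 14.0, 15.2, 26.8 and 14.3 MYOZ2 counts per 100 TPM3 counts. The log2 ratio was lower in ST than in SS by 1.15 (SE 0.27) in 4 of 4 lambs (exact sign-flip p = 0.13). PM and ST, the highest and the lowest muscle for TPM3, had similar ratios, ST being higher by 0.32 (SE 0.12) in 3 of 4 lambs (exact sign-flip p = 0.25). RF and PM differed by 0.08 (SE 0.47), with 2 of 4 lambs in each direction.

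**Figure D3:**
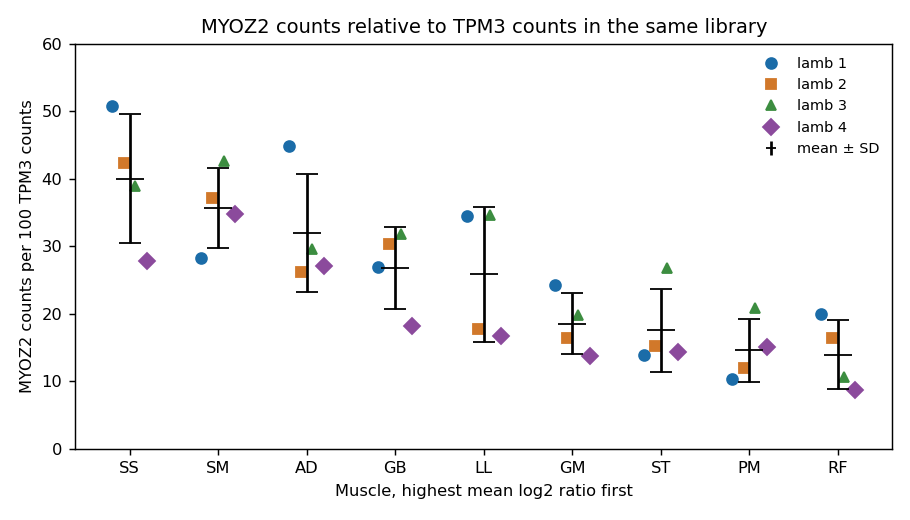
MYOZ2 counts per 100 TPM3 counts in the same library, by muscle from the highest mean log2 ratio to the lowest; points are lambs, and bars give the mean ± SD of 4 lambs. SS (40), SM (35.7) and AD (32.0) are at the high end, and ST (17.6), PM (14.6) and RF (14.0) at the low end.

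Both genes also differed between the libraries of different lambs. The lamb effect, adjusted for muscle, had F = 11.03 and an adjusted p of 7e-04 for MYOZ2, and F = 8.66 and an adjusted p of 0.0023 for TPM3. Of the loci tested, 17.6% passed the same test. Lamb 3 had the most MYOZ2 in 8 of 9 muscles, with a mean deviation of 0.63 (SE 0.12 over 9 muscles) on the log2 scale, and the most TPM3 in 6 of 9, with 0.42 (SE 0.056). Lamb 2 was the lowest in 4 muscles for each gene, with deviations of -0.34 (MYOZ2) and -0.29 (TPM3). The lamb effect of MYOZ2 was not called without lamb 3 (adjusted p = 0.52) or lamb 2 (0.016), and that of TPM3 not without lamb 3 (0.12), lamb 1 (0.029) or lamb 2 (0.012). Sequencing used 4 lanes with 9 libraries each, and which lamb went into which lane is not given in the sources used here. Lamb 1 also had the lowest total in 9 of 9 muscles, and the part of lane or depth in this effect was not tested.

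Over the 36 libraries, log2 CPM of MYOZ2 and of TPM3 had a Pearson r of 0.89, and also 0.89 after the mean of each lamb was removed (Spearman rho 0.85). The points share lambs, muscles and the scaling of each library. Over the 9 muscle means r was 0.91. After both the muscle and the lamb means were removed, r was 0.65, so libraries with more MYOZ2 than their muscle and lamb would give tended to hold more TPM3 too. The median r of all loci tested with MYOZ2 was 0.006 and with TPM3 0.007. A single median was taken for each gene rather than for each kind of r above, so the 0.65 should not be set against it.

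**Figure D4:**
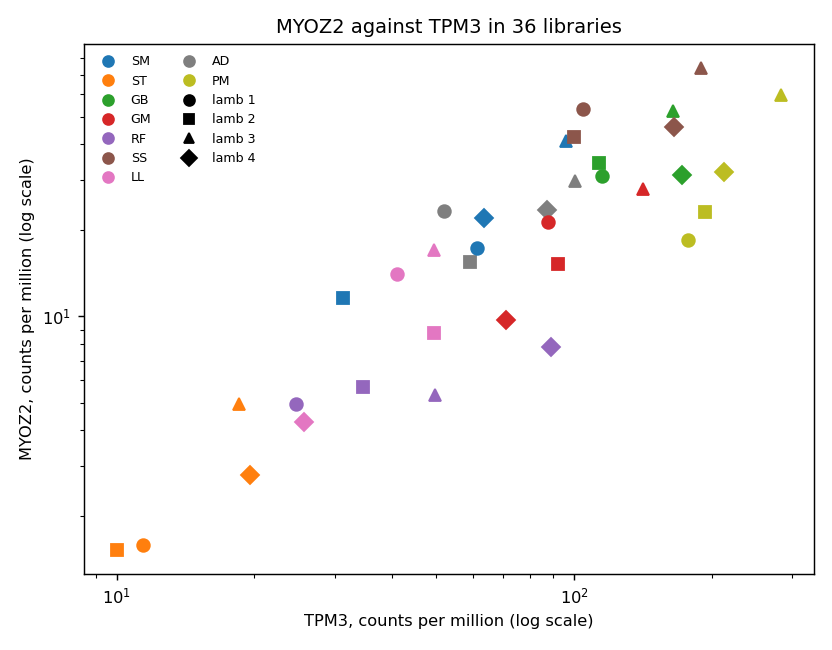
MYOZ2 against TPM3 in CPM (both axes log) in the 36 libraries, colored by muscle, with a symbol for each lamb. The ST libraries are at the lower left, the PM libraries toward the right and the SS libraries toward the top, with overlap. PM of lamb 3 reaches 59.4 CPM of MYOZ2, above SS of lamb 1 at 53.3 CPM. SS of lamb 3 reaches 189 CPM of TPM3, above PM of lamb 1 at 178 CPM. The Pearson r of log2 CPM is 0.89.

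The loci with the pattern most like each gene were ranked by the Pearson r of lamb-centred log2 CPM over the 36 libraries. For TPM3 they were led by its partners in the thin filament, the slow skeletal troponins. TNNT1, which ties the troponin complex to tropomyosin, had r = 0.97, and TNNC1, the calcium-binding subunit, also had r = 0.97. TNNI1, the inhibitory subunit, was in place 6 (r = 0.93). ATP2A2, the calcium pump of the slow-fiber sarcoplasmic reticulum, had r = 0.92 and MYL3, a slow myosin light chain, r = 0.90. MYOZ2 took place 12 for TPM3.
For MYOZ2 the first 2 places were taken by a pair of Ensembl genes, ENSOARG00000017779 (r = 0.93) and ENSOARG00000017646 (r = 0.90), that share 1 span on chromosome 17. That span holds the coordinates of both MYL2 and CCDC63, so neither could be named. TNNC1 (r = 0.90) and TNNT1 (r = 0.89) followed, and TPM3 was in place 5 (r = 0.89). The chromosome 17 pair also took places 3 and 4 for TPM3 (r = 0.94 each). A further Ensembl gene without a symbol here, ENSOARG00000019316, was in place 5 for TPM3 (r = 0.94) and in place 7 for MYOZ2 (r = 0.85).

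The other genes of the sarcomere could be followed only where the study gives coordinates, in its lists of genes that differed between muscles in these same libraries, so their directions are not independent evidence. Of 20 thin filament genes listed, 3 besides TPM3 were located, all of them slow troponins, and 3 of 3 were called lower in ST than in SS and lower in ST than in PM. Of 17 genes listed here as slow-fiber, 7 were located at a single locus, the same 3 troponins among them. Of these, 7 of 7 were called lower in ST than in SS and in PM. Over all loci tested, 2.25% were called between ST and SS and 1.69% between ST and PM, in either direction. The median log2FC of the 7 genes was -3.25 for ST over SS against -0.012 over all loci tested. MYOZ2 was the only 1 of 19 Z-disc and calcineurin-linked genes located, and no other myozenin or tropomyosin gene could be compared. Of 14 fast-fiber genes, PVALB alone, a calcium buffer of fast fibers, was located. PVALB was highest in RF and lowest in AD, with 5.68 ± 2.58 CPM in ST, 5.63 ± 7.84 CPM in SS and 0.13 ± 0.16 CPM in PM (SD, n = 4). It was called lower in PM than in ST (adjusted p = 7.3e-07) and than in SS (1.6e-05), with a PM mean under the level of 3 counts, so no fold is given. The log2FC of PVALB for ST over SS was 0.49 (adjusted p = 0.52).

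The slow-fiber genes among these had their highest mean in PM or in SS, and for most of them these muscles were not separated. ATP2A2, MYL3 and the troponins TNNT1, TNNC1 and TNNI1 had their highest mean in PM, as TPM3 did. CASQ2, the slow-fiber and cardiac calcium-storing calsequestrin, and MYOM3, an M-band protein, had theirs in SS, as MYOZ2 did. The study describes MYOM3 by sarcomere organization only, so its place among the slow-fiber genes rests on the list used here. MYL3 was the 1 slow-fiber gene of 7 with a called difference between PM and SS, at 185 ± 19.9 CPM in PM and 57.3 ± 29.7 CPM in SS (log2FC of SS over PM -1.79, adjusted p = 0.0038). For TNNT1 the same log2FC was -0.21 (adjusted p = 0.81), for TNNC1 -0.26 (0.75), for TNNI1 -0.16 (0.89) and for ATP2A2 -0.06 (0.93). For CASQ2 it was 0.53 (adjusted p = 0.29) and for MYOM3 0.42 (0.66). In MYOZ2 and TPM3 the corresponding values, 0.76 and -0.67, were not called either.

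The span of TPM3 held a further locus, assembled by the authors from the reads and without an Ensembl gene, with 4392 counts in all. It passed the joint test (F = 15.8, adjusted p = 6e-06) and was called in 7 pairs of muscles. It was highest in PM, with 38.1, 44.3, 50.1 and 53.8 CPM in lambs 1 to 4 (46.6 ± 6.87), and lowest in ST, with 4.25, 3.05, 5.28 and 3.65 CPM (4.06 ± 0.95). Its r with TPM3 was 0.93, and its counts came to between 17.2% (SM) and 29.1% (RF) of the TPM3 counts as means over lambs. Whether reads were assigned by strand is not given in the sources used here, so transcription of its own and fragments of TPM3 transcripts cannot be told apart.

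**Figure D5:**
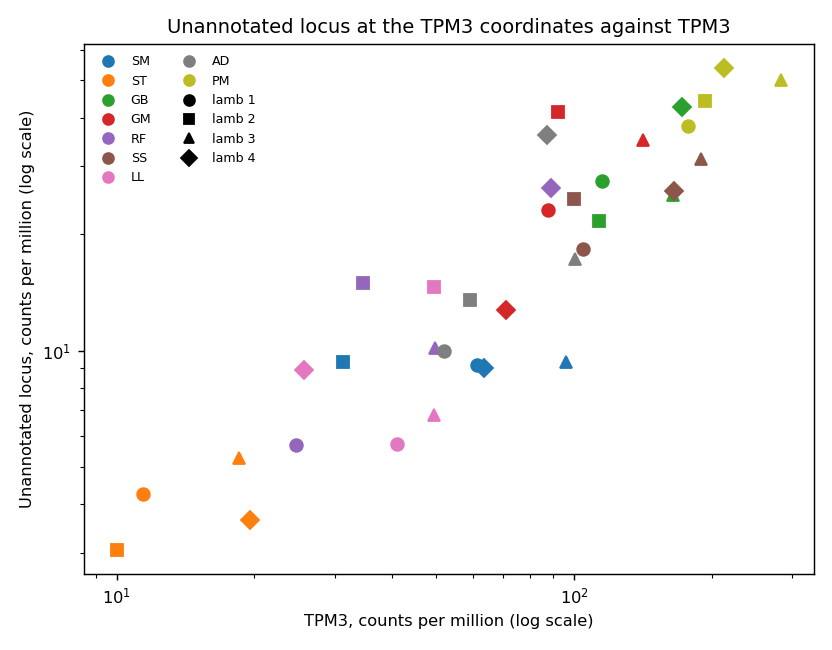
CPM of the unannotated locus at the TPM3 coordinates against TPM3 (both axes log) in the 36 libraries, colored by muscle, with a symbol for each lamb. The locus rises with TPM3 from the ST libraries, near 4.06 CPM, to the PM libraries, near 46.6 CPM.

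Judged by r, other loci near the genes did not follow them closely. Of 7 loci within 100 kb of MYOZ2, 4 were tested, with adjusted p from 0.011 to 0.78 in the joint test. None was called by edgeR, 3 had an unadjusted p below 0.05 and 1 was called by DESeq2. Their r with MYOZ2 lay between -0.051 and 0.41. Of 12 loci within 100 kb of TPM3, 6 were tested, and the unannotated locus was the 1 called. Over all loci tested, 9.73% passed this joint test in edgeR, so counts among 4 and 6 loci do not set these neighbourhoods apart. No such share is given here for the unadjusted p or for DESeq2. The r of the other 5 with TPM3 lay between -0.20 and 0.10.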

How the data were processed

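Muscle samples of 4 lambs were sequenced as 100-bp Illumina paired ends. Per the paper's methods, the authors aligned the reads to Oar_v3.1 with TopHat 2.0.13 in repeated rounds, merged Cufflinks 2.2.1 assemblies with the Ensembl annotation and counted with HTSeq. The deposited values are raw counts per locus. HTSeq's version, its strand setting and the lane of each sample are not given in the sources used here. The paper describes the reads used for expression as uniquely mapped. Whether some reads of similar tropomyosin genes were still placed at TPM3 was not tested. The 394 repeated entries of 31530 were dropped.

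Counts were filtered by muscle (filterByExpr), scaled by TMM and fitted with edgeR 4.0.16 (quasi-likelihood, robust, R 4.3.3) with muscle and lamb as terms. Log2 CPM used a prior count of 2. The lamb block follows from the labels, which give the animal: over all loci, deviations from muscle means had a median r of 0.23 within a lamb and -0.09 between lambs. The value between lambs follows largely from that within a lamb, because deviations from a muscle mean cancel over the lambs. As a check for a library deposited more than once, counts were compared within muscles, and no pair of 54 differed by as little as counting noise (chi-square per degree of freedom at least 5.12). Since each pair comes from different lambs, this says nothing else. Alternatives included DESeq2 1.42.0. Pseudocounts of 0.5 entered the ratio. Symbols were assigned where at least 95% of the coordinates given by the study fell in a single tested locus, for 30 of 39 genes. MYOZ2 and TPM3, the lists and the 10 most similar loci per gene as the rule for naming genes were chosen with earlier results of these data known.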

Additional observations from a re-analysis of the deposited data

Results flagged for a closer look

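Of 27 groups of 4 lambs examined (MYOZ2, TPM3 and their log2 ratio in each of 9 muscles), 2 had a sample far from the others by Dixon's test, in which the gap to the nearest sample exceeds 0.829 of the range. Chance alone flags about 1 in 20 groups. MYOZ2 in GB was 52.3 CPM in lamb 3, with a gap of 0.84 of the range, against 31.0 to 34.4 CPM in the other lambs. The log2 ratio of MYOZ2 to TPM3 in ST was -1.88 in lamb 3, with a gap of 0.85, where the MYOZ2 counts were 30 in lamb 3 and 6, 7 and 13 in the others.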

How the results depend on the processing

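The joint tests of MYOZ2 and TPM3 and the permutation test of their ratio stayed past their thresholds under each alternative run, and the ratio in ST stayed below that in SS. Without the replicate block by lamb, the pairs called fell from 18 to 10 for MYOZ2 and from 17 to 11 for TPM3, LL over ST was no longer called for either gene and RF over ST no longer for TPM3, while the F of the ratio was 7.33; the cause was not tested. With each lamb left out, the pairs called ranged from 11 to 18 (MYOZ2) and from 9 to 19 (TPM3), and the adjusted p of the lamb effect from 1.3e-05 to 0.52 (MYOZ2) and from 1.1e-05 to 0.12 (TPM3), with fewer samples in each fit. Of 432 values of 32 named pairs under the alternatives, 11 lost their call and 3 turned their sign, none of these 3 called in any fit. The 432 include the values at an adjusted p threshold of 0.05, which come from the main fit, so their log2FC could not change. With a lamb left out, MYOZ2 in AD over SM ran from -0.000686 to 0.279 (-0.000412 without lamb 1). TPM3 in RF over LL ran from -0.433 (without lamb 4) to 0.402. With only the 8 samples of a pair, LL over ST was not called for MYOZ2 (1.99, adjusted p = 0.011) or TPM3 (1.51, 0.017). DESeq2, other scalings, other filters and the likelihood ratio test moved the counts of pairs by less than 1.5 times. MYOZ2 had fewer than 10 counts in 2 ST libraries, so the filter of 10 counts in every sample gave no value for it. In ST, MYOZ2 rests on 6 to 30 counts a library, where depth limits precision.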
